A study of Drosophila melanogaster with 14 samples.

Results

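The maltases of *Drosophila melanogaster* are a small family of related enzymes. Here 10 genes with a *Mal-A* or *Mal-B* symbol were followed in whole embryos. These were null, at least zygotically, for 1 class of *shaggy* (*sgg*) protein isoforms, or were their controls. The members were chosen by symbol from the authors' tables of genes that had passed a filter on low counts in each experiment. 7 of the 10 genes are in both tables, *Mal-A1* to *Mal-A5*, *Mal-B1* and *Mal-B2*. The other 3, *Mal-A6*, *Mal-A7* and *Mal-A8*, are in neither and were followed into the table of raw counts by their identifiers, among the 17493 genes counted there. The values that chose the 7 are therefore their read counts. The largest total over all samples among the 3 outside was 143 counts (*Mal-A6*), and the smallest among the 7 inside was 687 (*Mal-A1*). The family was also picked with the difference of *Mal-B1* in the isoA experiment already known, so that difference is described without a p-value.

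The RNA came from whole embryos aged 10 to 15 h, in 14 samples. The 3 isoA null samples came from a homozygous stock in which CRISPR-Cas9 had removed the last exon particular to the Sgg-PA isoforms, so the embryos had neither maternal nor zygotic product of this class. Their 3 isoA control samples came from the progenitor strain, a THattP40 line expressing *nos*-Cas9. Adults grown from the injected embryos had been crossed to *w1118* before stocks were made. The 4 isoB null samples were non-fluorescent embryos of sggisoB/FM7 GFP mothers and FM7 GFP/Y fathers, zygotically null for the Sgg-PB class with wild-type maternal product still present. An embryo without the balancer from such a cross is a male with a single X, here carrying sggisoB. Their 4 isoB control samples were non-fluorescent embryos of progenitor/FM7 GFP mothers and FM7 GFP/Y fathers, written as a +/FM7-GFP cross in the methods. The balancer in both isoB crosses carries *twi*-GAL4 and UAS-2xEGFP. Their selected embryos should therefore also be male. The isoA embryos were not sorted, so both sexes are expected. These sexes are inferred from the crosses. Each null was 1 deletion in 1 stock. Stock, cross, sorting and inferred sex differ between the experiments in the same way as the samples do, so they cannot be told apart.

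Maltases are alpha-glucosidases of glycoside hydrolase family 13. They release glucose from the non-reducing end of maltose and other short alpha-linked sugars, and in insects many are secreted by gut cells into the lumen or held at the gut surface, where they act on dietary starch fragments and sucrose. *Mal-A1*, *Mal-A2* and *Mal-A3* were first described as genes for larval visceral proteins and have the older names *LvpH*, *LvpD* and *LvpL*. An embryo of this age does not feed and lives on yolk while its midgut differentiates.

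The 8 *Mal-A* genes lie together on chromosome 2R between positions 8449664 and 8473961 of the Release 6 assembly, within 24298 bases, with gaps of 65 to 1868 bases between neighbours. *Mal-A1* (FBgn0002570, 8449664 to 8451904), *Mal-A3* (FBgn0002571, 8455909 to 8457892) and *Mal-A7* (FBgn0033296, 8468646 to 8471663) are on the minus strand. *Mal-A2* (FBgn0002569, 8453627 to 8455782), *Mal-A4* (FBgn0033294, 8458815 to 8460884), *Mal-A5* (FBgn0050359, 8462753 to 8465092), *Mal-A6* (FBgn0050360, 8465158 to 8467595) and *Mal-A8* (FBgn0033297, 8471954 to 8473961) are on the plus strand. *Mal-A2* and *Mal-A3* therefore face each other. *Mal-B1* (FBgn0032381, 11847226 to 11849169) and *Mal-B2* (FBgn0032382, 11849958 to 11852881) lie on the plus strand of 2L, 788 bases apart. Both sit within introns of *Pde1c*, a cyclic nucleotide phosphodiesterase gene on the opposite strand, and share 0 exon bases with it. The 3′ end of *Mal-A1* shares 82 exon bases with *Cyp4e1*, a cytochrome P450 gene, and *Mal-A8* shares 6 with *mtt*, a gene of the metabotropic glutamate receptor family. The authors' counting ignored strand and dropped reads on more than 1 gene, so reads on these shared bases are missing. For the same reason, reads of unspliced *Pde1c* RNA on exons of *Mal-B1* or *Mal-B2* would count for those genes.

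**Figure D1:**
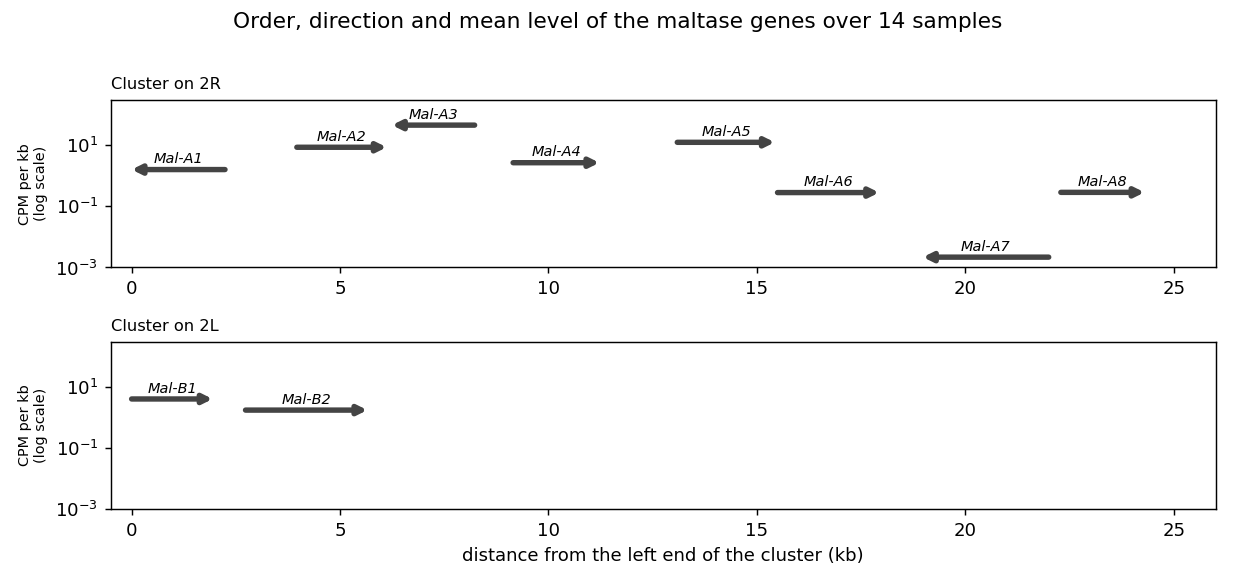
Order, direction and mean level of the 10 maltase genes. The horizontal axis is the distance in kb from the left end of each cluster, the vertical axis is the mean CPM per kb of exon over 14 samples on a log scale, and each arrow is a gene pointing in its direction of transcription. *Mal-A3* stands highest at 44.9 CPM per kb and *Mal-A7* lowest at 0.00218.

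Total counts on genes were 15841397 to 18311205 in the isoA null samples and 8082962 to 12800846 in the isoA controls. They were 14378062 to 25124367 in the isoB null samples and 11189291 to 23798611 in the isoB controls. Levels are given as CPM, counts per 1000000 counts of a library after TMM scaling over all 14 samples, and 3 counts were worth between 0.121 and 0.367 CPM. Values under this floor are printed as measured and cannot be told from 0 with any firmness. No label says whether replicates came from separate egg collections, so the p-values measure the spread between these samples only. The targeted gene was counted over all its exons, which hides the loss of 1 of them. *sgg* had 262 to 324 CPM in isoA null embryos, 192 to 268 in isoA controls, 261 to 340 in isoB null embryos and 326 to 384 in isoB controls. *lncRNA:roX1*, a noncoding RNA of male dosage compensation, had 439 to 566 CPM in isoA null embryos and 448 to 836 in isoA controls. It had 588 to 864 CPM in isoB null embryos and 444 to 617 in isoB controls. The ranges of the control groups overlap and those of the null groups do not. The sex of the embryos was not tested. Markers of neurons (*elav*), glia (*repo*), muscle (*Mhc*), epidermis (*grh*), midgut (*GATAe*), fat body and hemocytes (*srp*), hindgut (*byn*) and salivary gland and gut (*fkh*) were present in all 14 samples, at 11.1 CPM or more. In RNA of whole embryos, fewer cells of a type and less RNA per cell cannot be told apart.

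The members differed widely in level. Per kb of exon, *Mal-A3* was the most abundant maltase in every sample (mean 44.9 CPM per kb over 14 samples, range 23.5 to 68.5). *Mal-A5* (mean 12.3, range 8.47 to 17.0) and *Mal-A2* (mean 8.48, range 3.71 to 12.9) came after it, and their ranges overlap. *Mal-B1* (4.01), *Mal-A4* (2.65), *Mal-B2* (1.74) and *Mal-A1* (1.58) formed a lower tier with overlapping ranges. The mean of *Mal-B1* pools unlike conditions, as it averaged 5.44 CPM per kb in isoA null embryos, 0.257 in isoA controls, 5.26 in isoB null embryos and 4.51 in isoB controls. In isoA controls it was thus below *Mal-A8* (0.803) and *Mal-A6* (0.705), whose means there rest on replicate 3. *Mal-A8* (0.285) and *Mal-A6* (0.280) averaged close to the floor. *Mal-A7* had 2 counts in all, 1 in each of 2 isoB null samples, and 0 in every other sample. The transcripts of all members together summed to 142 to 150 CPM in isoA null embryos, against 172 to 175 in isoA controls, and to 85.6 to 125 CPM in isoB null embryos, against 130 to 191 in isoB controls. In each experiment the sums of the null samples all lay below those of the controls. Of all genes tested, 12.7% in the isoA experiment and 11.2% in the isoB experiment did the same. In the isoA experiment 0 maltases were called as lower, and nothing is read from the order of these sums. These sums are dominated by *Mal-A3*, which made up 47.5 to 53.2% of the level per kb of the family in isoA null embryos, 54.0 to 71.6% in isoA controls, 49.5 to 56.2% in isoB null embryos and 58.8 to 66.7% in isoB controls.

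**Figure D2:**
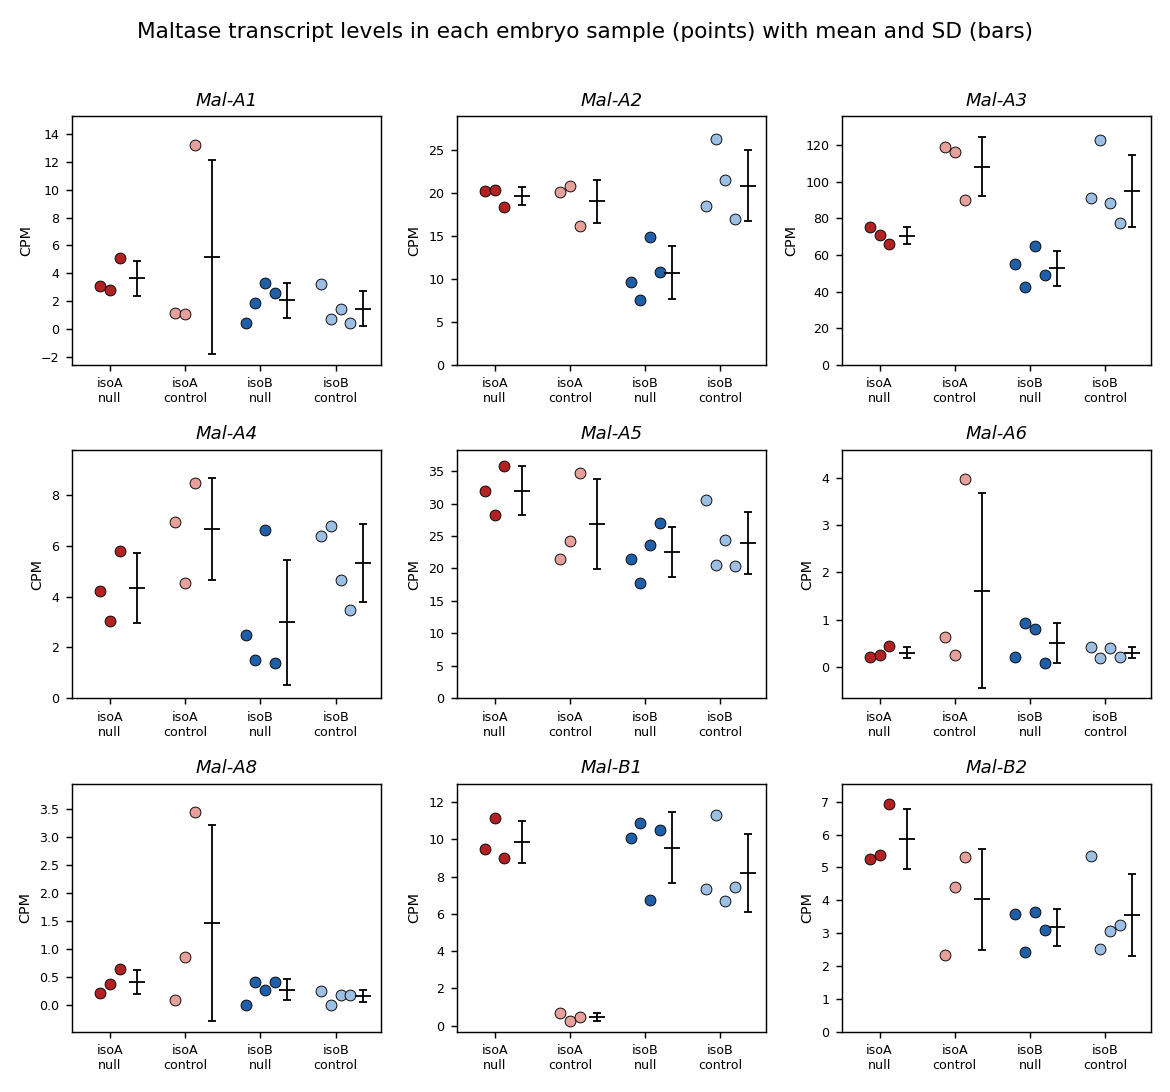
Level of 9 maltase genes in each sample in CPM (vertical axes, each with its own scale), by condition (horizontal axes). Each point is a sample and the bars give the mean and SD of the group, which reach below 0 where a single sample is far above the others. *Mal-B1* is at 0.245 to 0.704 CPM in isoA controls and at 6.67 to 11.3 CPM in all other samples, and *Mal-A2* and *Mal-A3* are lower in the isoB null samples than in their controls. *Mal-A7* is left out for its 2 counts.

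In each experiment genes that passed the same filter were tested with edgeR's quasi-likelihood test, with Benjamini-Hochberg adjustment over all genes tested. To be called, a gene needed an adjusted p of 0.05 or less together with a log2 fold change of 0.7 or more, up or down. SE is the standard error of the fitted value. Among isoA null embryos and their controls 10397 genes were tested and 0.971% were called. Of the 7 maltases tested there 1 was called, *Mal-B1*, and it was higher, as 0.289% of all genes were. Its difference was known when the family was picked, so nothing is read from this call. Among isoB null embryos and their controls 10693 genes were tested and 4.56% were called. Of the 7 maltases tested there 2 were called, *Mal-A2* and *Mal-A3*, and both were lower. Genes called as lower made up 3.58% of all genes tested in that experiment. The median log2 fold change of the 7 members was 0.05 in the isoA experiment, against -0.01 over all genes, and -0.19 in the isoB experiment, against -0.01 over all genes. These counts and medians cover only the members that passed the filter, not the family.

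**Figure D3:**
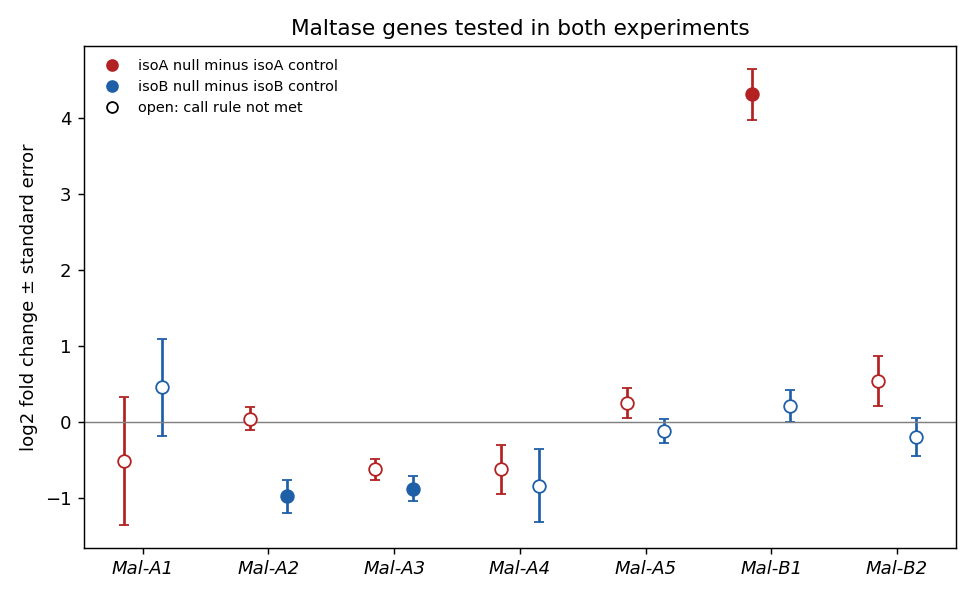
Log2 fold change (vertical axis) of the 7 tested maltase genes (horizontal axis) in the isoA experiment (red) and in the isoB experiment (blue), null minus control, with bars of 1 standard error. Filled points met the call rule. *Mal-B1* stands at 4.31 in the isoA experiment and 0.21 in the isoB experiment, and *Mal-A2* and *Mal-A3* stand at -0.97 and -0.87 in the isoB experiment.

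*Mal-B1*, an alpha-glucosidase gene of the 2L pair, had the largest difference of any member. It had 9.46, 11.1 and 8.99 CPM in the isoA null samples (183, 213 and 143 counts), against 0.704, 0.245 and 0.452 CPM in the isoA controls (9, 2 and 5 counts). The fitted log2 fold change was 4.31 (SE 0.34), or 19.9-fold higher in isoA null embryos, and 4.08 to 4.73 under 12 alternative settings. *Mal-B1* passed the filter of this experiment only through its null samples, where it is high, so a difference was built into its being tested there, and nothing is read from its call or from the range of its values. In the other experiment the gene had 10.1, 10.9, 6.74 and 10.5 CPM in isoB null samples, against 7.31, 11.3, 6.67 and 7.47 CPM in isoB controls. These groups overlap. Their log2 fold change was 0.21 (SE 0.21, 95% interval -0.25 to 0.68, edgeR adjusted p = 0.517). On log2 CPM the exact permutation test, two-sided, returned p = 0.457, and 0.0286 is the smallest that 4 samples against 4 allow.

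Across the 4 conditions it was thus the isoA controls that stood apart. Their 3 samples had at most 0.704 CPM of *Mal-B1*, while the other 11 samples, nulls and isoB controls alike, had 6.67 to 11.3 CPM. The isoA controls differed from the isoB controls by a log2 difference of -4.03 (SE 0.33), and the isoB effect minus the isoA effect was -4.08 (SE 0.40), both from a fit of all 14 samples. These values share the isoA controls with the fold change of 4.31, so the 3 values are not separate findings. The isoA and isoB controls are both labelled as progenitor material, and differ in cross, sorting and inferred sex.

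The genes next to *Mal-B1* were called in neither experiment. *Mal-B2*, 788 bases away, had 5.27, 5.39 and 6.92 CPM in isoA null samples, against 2.35, 4.40 and 5.33 CPM in isoA controls. These groups overlap, and the log2 fold change was 0.55 (SE 0.33, 95% interval -0.20 to 1.30, edgeR adjusted p = 0.388). In the isoB experiment *Mal-B2* had 3.57, 2.42, 3.65 and 3.11 CPM in null samples, against 5.36, 2.53, 3.07 and 3.25 CPM in controls, with a log2 fold change of -0.19 (SE 0.25, edgeR adjusted p = 0.624) that became 0.071 without isoB control replicate 1. *Pde1c*, whose introns hold both genes, averaged 49.8 ± 6.83 CPM in isoA null embryos and 47.6 ± 11.9 CPM in isoA controls (SD, n = 3 each), with 0.07 as the log2 fold change (edgeR adjusted p = 0.875). It averaged 49.5 ± 6.57 CPM in isoB null embryos and 60.1 ± 4.61 CPM in isoB controls (SD, n = 4 each), with -0.30 as the log2 fold change (edgeR adjusted p = 0.0766). Of the 2 annotated genes on either side of the pair, *CG42486*, *CG42751* and *Or33a* had at most 4 counts in any sample. *CG14933* had at most 18 counts and a log2 fold change of -0.60 in the isoB experiment (edgeR adjusted p = 0.316).

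Over the 14 samples the levels most like those of *Mal-B1*, by Pearson's r of log2 CPM, were those of *asRNA:CR45600* on 3R (r = 0.94), *CG7065* on X (r = 0.93) and *Cadps* on chromosome 4, a gene of dense-core vesicle release (r = 0.92). The points share their libraries and the low isoA controls, so these values describe the same split of the samples. *asRNA:CR45600* was counted without strand. Reads on exon bases shared with another gene would be missing from its count, and reads of unspliced RNA from the other strand would be included. It averaged 6.82 ± 1.83 CPM in isoA null embryos and 0.399 ± 0.061 CPM in isoA controls (SD, n = 3 each). In the isoB experiment it averaged 11.7 ± 1.45 CPM in null embryos and 17.1 ± 3.24 CPM in controls (SD, n = 4 each). *Cadps* averaged 189 ± 21.0 CPM in isoA null embryos and 123 ± 14.6 CPM in isoA controls (SD, n = 3 each). None of the 3 lies on 2L near *Mal-B1*.

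Of the marker lists examined beside this result, the eggshell and yolk transcripts moved with the isoA groups. All 10 of these genes that were tested had a positive log2 fold change (median 2.14, against -0.01 over all genes) and 1 of the 10 was called. A gene low in the controls can pass the filter through the null samples alone, so nothing is read from these signs, their median or the calls. The number called was 4 without isoA control replicate 3 and 0 without isoA null replicate 2, isoA null replicate 3 or isoA control replicate 1. It was 0 with limma-voom, 6 with DESeq2 and 7 in a joint fit of all samples. Summed over the 13 listed genes their level was 56.3 to 103 CPM in isoA null samples, against 16.4 to 29.7 CPM in isoA controls, with 12 or 13 of the 13 genes above 3 counts in each null sample and 7 to 10 in each control. In isoB null samples the sum was 8.73 to 14.3 CPM and in isoB controls 5.98 to 8.39 CPM. The early segmentation genes had 0 of 10 called in the isoA experiment, and 8 had a positive log2 fold change (median 0.21). In every sample 10 or 11 of these genes were above 3 counts, so their sum is not read as a measure of embryo age. Their sum was 161 to 183 CPM in isoA null samples, against 152 to 185 CPM in isoA controls. The part of maternal or yolk transcripts in the level of *Mal-B1* was not tested.

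*Mal-A3*, the most abundant maltase, was lower in isoB null embryos. It had 54.8, 42.2, 64.7 and 48.9 CPM in the null samples, against 91.4, 123, 88.4 and 77.3 CPM in the controls. Every null sample lay below every control, as happened for 11.2% of all genes tested. The log2 fold change was -0.87 (SE 0.16, 95% interval -1.24 to -0.50, edgeR adjusted p = 0.0141), a level 1.83-fold lower in the null embryos. A two-sided exact permutation test returned p = 0.0286, the smallest that 4 samples against 4 allow. *Mal-A3* kept its call whichever of the 8 samples was left out, with values of -0.99 to -0.72.

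*Mal-A2*, which faces *Mal-A3* end to end, was also lower in isoB null embryos. It had 9.64, 7.55, 14.9 and 10.8 CPM in the null samples, against 18.5, 26.3, 21.5 and 16.9 CPM in the controls. These groups do not overlap either, and the nearest samples were null replicate 3 and control replicate 4. The log2 fold change was -0.97 (SE 0.21, 95% interval -1.45 to -0.49, edgeR adjusted p = 0.0224), a level 1.96-fold lower in the null embryos, with p = 0.0286 in the two-sided exact permutation test, again the smallest possible. The call of *Mal-A2* was lost without isoB control replicate 2 (-0.84, edgeR adjusted p = 0.0705) or without isoB control replicate 3 (-0.96, adjusted p = 0.0682).

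Neither gene was called in the isoA experiment. *Mal-A2* had 20.2, 20.3 and 18.4 CPM in null samples, against 20.1, 20.8 and 16.1 CPM in controls, and these groups overlap. Its log2 fold change was 0.05 (SE 0.15, 95% interval -0.30 to 0.40, edgeR adjusted p = 0.880). *Mal-A3* had 75.2, 70.8 and 65.9 CPM in null samples, against 119, 116 and 89.8 CPM in controls. All 3 null samples lay below all 3 controls, as happened for 12.7% of the genes tested there, and the log2 fold change was -0.62 (SE 0.14, 95% interval -0.93 to -0.30, edgeR adjusted p = 0.0906), which misses the call rule on both counts. A two-sided exact permutation test returned p = 0.1, the smallest that 3 samples against 3 allow. Without isoA control replicate 3, the lowest of the controls, *Mal-A3* was called (-0.74, edgeR adjusted p = 0.0211).

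The ratio of the 2 genes within a sample was compared without a test. It is built from the *Mal-A3* and *Mal-A2* values given above, so it is not a separate finding. Per kb, *Mal-A3* had 4.23, 3.95 and 4.07 times the level of *Mal-A2* in isoA null samples, against 6.72, 6.34 and 6.33 times in isoA controls, without overlap. In the isoB experiment the ratios were 6.45, 6.34, 4.93 and 5.16 in null samples, against 5.61, 5.30, 4.67 and 5.18 in controls, and these overlap. Whether the effect on either gene differed between the experiments was tested by the interaction term, the isoB effect minus the isoA effect, which 2.54% of 11021 genes passed at an adjusted p of at most 0.05. Of 9 maltases tested 1 passed, *Mal-B1*, described above, with a negative value as for 0.835% of all genes. The isoA result of this gene was known when the family was picked, so nothing is read from its pass. The difference was -0.998 for *Mal-A2* (SE 0.29, edgeR adjusted p = 0.0736). Under 18 alternatives the *Mal-A2* value lay between -1.20 and -0.86, and in 16 of them it did not pass either. The highest adjusted p was 0.158. It passed without isoB null replicate 3 (-1.20, edgeR adjusted p = 0.0277) and with DESeq2 (adjusted p = 0.0225). For *Mal-A3* the difference was -0.23 (SE 0.23, 95% interval -0.73 to 0.27, edgeR adjusted p = 0.587).

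By the same measure of likeness the genes nearest to *Mal-A2* over the 14 samples were *CG33514* (r = 0.97), *CG33127* (r = 0.96) and *CG8773* (r = 0.95), and those nearest to *Mal-A3* were *CG8560* (r = 0.95), *CG5096* (r = 0.95) and *CG40486* (r = 0.94). These 6 genes come from chromosomes 2L, 3L, 3R and X, and none from 2R. *Mal-A2* and *Mal-A3* had r = 0.86 with each other, over points that share the low isoB null samples. *CG33127*, for example, averaged 11.3 ± 2.08 CPM in isoB null embryos and 25.5 ± 4.53 CPM in isoB controls (SD, n = 4 each).

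Midgut transcripts were examined beside the 2 called maltases, since the gut is where the *Mal-A* enzymes are best known. Of 11 midgut genes tested in the isoB experiment 4 were called and all 4 were lower, with a median of -0.62 over the 11, against -0.01 over all genes. They are *mag*, a lipase gene (-1.13), and the trypsin genes *kappaTry* (-1.03), *lambdaTry* (-1.06) and *zetaTry* (-1.40). Of all genes tested in that experiment 3.58% were called as lower. The trypsin genes *alphaTry* (0.38, edgeR adjusted p = 0.578), *betaTry* (0.89, adjusted p = 0.349) and *iotaTry* (-0.83, adjusted p = 0.0601) were not called. The 4 midgut calls fell to 2 without isoB control replicate 1 and to 1, *kappaTry*, without isoB control replicate 2 or 3. The midgut identity gene *GATAe* averaged 128 ± 19.5 CPM in isoB null embryos and 107 ± 5.71 CPM in isoB controls (SD, n = 4 each), a log2 difference of 0.24 (edgeR adjusted p = 0.173), and that of the homeobox gene *lab* was 0.23 (edgeR adjusted p = 0.128). *Myo61F*, the gene of a brush border myosin, had -0.62 (edgeR adjusted p = 0.0189) and *mex1*, an enterocyte gene, -0.39 (adjusted p = 0.0378), both under the fold limit of the call. The summed level of the 14 listed genes was 282 to 363 CPM in isoB null samples, with 11 to 14 genes above 3 counts, against 349 to 392 CPM in isoB controls, with 10 to 12 above 3 counts. *Jon25Bi*, *Jon25Bii* and *Jon65Ai*, digestive serine peptidase genes of the feeding gut, had at most 6 counts in any sample of this experiment. In the isoA experiment 0 of 11 midgut genes were called, and the sum was 325 to 356 CPM in null samples, against 354 to 404 CPM in controls.

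The late cuticle genes also moved with the isoB groups. Of 13 tested all 13 were called as lower (8 without isoB control replicate 2 or 3). Of all genes tested there 3.58% were called as lower. The paper had already reported lower cuticle genes from these same samples, so nothing is read from the calls of this list. The 14 listed genes summed to 1624 to 1832 CPM in isoB null samples, against 2628 to 3574 CPM in isoB controls. In the isoA experiment 0 of 13 were called (1 without isoA control replicate 3), and 9 had a negative log2 fold change (median -0.22). The sum there was 1666 to 2495 CPM in null samples. In isoA control replicates 1, 2 and 3 it was 3154, 3178 and 1516 CPM. The early segmentation genes had 0 of 11 called in the isoB experiment. Their sum, again not read as a measure of embryo age, was 229 to 247 CPM in isoB null samples, against 190 to 198 CPM in isoB controls. Of the 11 genes 9 had a positive log2 fold change (median 0.25, against -0.01 over all genes). The part that midgut content or developmental stage may have in the levels of *Mal-A2* and *Mal-A3* was not tested.

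*Mal-A4*, the neighbour of *Mal-A3* on the plus strand, varied widely among the isoB null samples. It had 2.50, 1.49, 6.61 and 1.39 CPM in the null samples, against 6.40, 6.78, 4.65 and 3.47 CPM in the controls. Null replicates 1, 2 and 4 lay below all controls, and null replicate 3 lay among them. The log2 fold change was -0.83 (SE 0.48, 95% interval -1.90 to 0.24, edgeR adjusted p = 0.262), and without null replicate 3 it was -1.61 and called (adjusted p = 0.0302). In the isoA experiment *Mal-A4* had 4.24, 3.03 and 5.79 CPM in null samples, against 6.96, 4.53 and 8.49 CPM in controls, groups that overlap, with a log2 fold change of -0.62 (SE 0.33, edgeR adjusted p = 0.336).

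*Mal-A5*, the second most abundant member per kb, was called in neither experiment. It had 31.9, 28.2 and 35.8 CPM in isoA null samples, against 21.5, 24.2 and 34.7 CPM in isoA controls, and 21.5, 17.8, 23.7 and 27.1 CPM in isoB null samples, against 30.5, 20.5, 24.4 and 20.4 CPM in isoB controls. In both experiments the groups overlap. The log2 fold change was 0.26 in isoA null embryos (95% interval -0.20 to 0.71, edgeR adjusted p = 0.504) and -0.11 in isoB null embryos (95% interval -0.47 to 0.25, edgeR adjusted p = 0.661). The second interval does not reach the -0.87 of *Mal-A3* or the -0.97 of *Mal-A2*.

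*Mal-A1*, *Mal-A6* and *Mal-A8* shared a single high sample, isoA control replicate 3. *Mal-A1* had 3.10, 2.77 and 5.09 CPM in isoA null samples, against 1.17, 1.10 and 13.2 CPM in isoA controls. *Mal-A6* had 0.207, 0.262 and 0.440 CPM in isoA null samples, against 0.625, 0.245 and 3.98 CPM in isoA controls. *Mal-A8* had 0.207, 0.366 and 0.629 CPM in isoA null samples, against 0.0782, 0.857 and 3.43 CPM in isoA controls. In each of the 3 genes this sample was the highest of all 14, and the next highest had 5.09, 0.928 and 0.857 CPM. The log2 fold change of *Mal-A1* in isoA null embryos was -0.50 with this sample (SE 0.84, edgeR adjusted p = 0.770) and 1.66 without it (adjusted p = 0.0906), so its sign rested on 1 library. In the isoB experiment *Mal-A1* had 0.428, 1.86, 3.31 and 2.62 CPM in null samples, against 3.24, 0.723, 1.45 and 0.439 CPM in controls, with a log2 fold change of 0.46 (SE 0.64, edgeR adjusted p = 0.651). *Mal-A6* ranged between 0.0818 and 0.928 CPM in isoB null samples and between 0.181 and 0.416 CPM in isoB controls. *Mal-A8* ranged between 0 and 0.409 CPM in isoB null samples and between 0 and 0.249 CPM in isoB controls, which is within a few counts of the floor, so no difference was detectable at this depth. Both genes failed the filter of each experiment with all its samples, and their values here come from the fit of all 14 samples. There *Mal-A6* had log2 fold changes of -2.44 in isoA null embryos (edgeR adjusted p = 0.118) and 0.72 in isoB null embryos (edgeR adjusted p = 0.581), and *Mal-A8* had -1.87 (edgeR adjusted p = 0.231) and 0.75 (edgeR adjusted p = 0.633). Within the isoA experiment *Mal-A8* had -1.86 with no low-count filter (edgeR adjusted p = 0.376) and -0.058 without isoA control replicate 3 (edgeR adjusted p = 0.982).

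Some other hydrolase genes were also highest in isoA control replicate 3. *betaTry*, a trypsin gene, had 28.9 CPM there (320 counts), against 0.0904 to 2.20 CPM in the other 13 samples. *Jon25Bi* had 11.0 CPM (122 counts), *Jon25Bii* 5.06 CPM (56 counts) and *Jon65Ai* 7.59 CPM (84 counts), and *Jon25Bi* and *Jon65Ai* had at most 5 counts in every other sample. *LManVI*, an alpha-mannosidase gene, had 40.3 CPM (446 counts), against 0.404 to 6.10 CPM elsewhere. *Mal-A2* and *Mal-A3* were not among them, as this sample had the lowest values of the isoA controls for both. The same held for *lambdaTry*, at 25.7 CPM there, and *mag*, at 2.98 CPM. The choice of these enzyme genes came after seeing their values, and their relation to the 3 maltases was not tested.

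**Figure D4:**
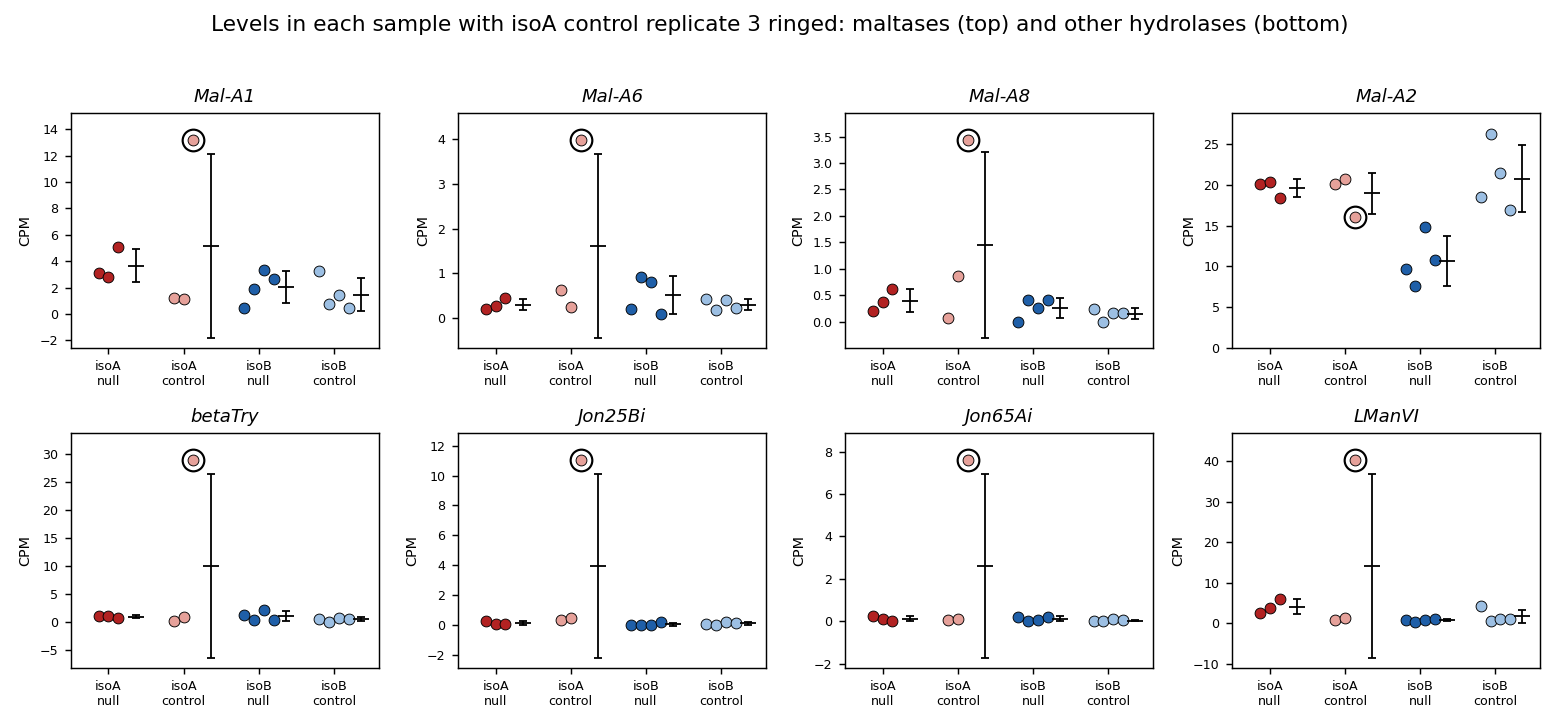
Level in CPM (vertical axes, each with its own scale) of 4 maltase genes in the top row and of 4 other hydrolase genes in the bottom row, by condition (horizontal axes). Points are samples, bars give the mean and SD, which reach below 0 where 1 sample is far above the others, and the ring marks isoA control replicate 3. The ringed sample is the highest of all 14 for *Mal-A1* (13.2 CPM), *Mal-A6*, *Mal-A8*, *betaTry* (28.9 CPM), *Jon25Bi*, *Jon65Ai* and *LManVI*, and the lowest of the isoA controls for *Mal-A2* (16.1 CPM).

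Between the 2 kinds of control, 26.8% of 11021 genes differed at an adjusted p of at most 0.05. Of the 9 maltases tested 3 passed. The isoA result of *Mal-B1*, which shares these isoA controls, was known when the family was picked, so nothing is read from its pass. *Mal-B1* was lower in isoA controls, as 12.6% of all genes were, and *Mal-A6* and *Mal-A8* were higher, as 14.2% were, with log2 differences of 2.36 (SE 0.83, edgeR adjusted p = 0.0467) and 3.07 (SE 0.94, edgeR adjusted p = 0.0267). The 2 groups overlap for both genes, and two-sided exact permutation tests gave p = 0.143 and p = 0.2, where 3 samples against 4 allow a smallest p of 0.0286. Without isoA control replicate 3 the log2 differences were 0.51 (adjusted p = 0.739) and 1.25 (adjusted p = 0.459), so neither call stood without that library. These libraries are also the controls of the isoA experiment. For *Mal-A2*, *Mal-A3*, *Mal-A4*, *Mal-A5* and *Mal-B2* the log2 differences between the controls were -0.13, 0.19, 0.34, 0.16 and 0.16, with edgeR adjusted p-values of 0.401 to 0.720. *Mal-A1* had 1.79 (edgeR adjusted p = 0.122) with isoA control replicate 3 and -0.42 without it.

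Genes of related biochemistry were counted in 4 lists, to be read beside the 0.971% of all genes called in the isoA experiment and the 4.56% called in the isoB experiment. Of the family 13 relatives, which are the amylases *Amy-p* and *Amy-d*, *Amyrel*, the glycogen branching enzyme *AGBE* and the amino acid transporter subunit *CD98hc*, 4 were tested in the isoA experiment and 3 in the isoB experiment, and 0 were called in each. The 11 other glycosidases tested had 0 calls in the isoA experiment (1 with DESeq2) and 1 in the isoB experiment, with medians of -0.01 and -0.33. That gene is *LManV*, an alpha-mannosidase gene, with 23.6, 10.5, 21.3 and 24.2 CPM in isoB null samples, against 50.5, 53.8, 42.6 and 38.6 CPM in isoB controls. Its groups do not overlap, and its log2 fold change was -1.25 (SE 0.23, edgeR adjusted p = 0.0136), called whichever of the 8 samples was left out. Sugar transporters had 0 of 5 called in isoA null embryos (1 in the fit of all 14 samples) and 0 of 6 in isoB null embryos. Of 10 regulators of the response to sugar and insulin, 0 were called in isoA null embryos and 2 in isoB null embryos, both higher. They are *Thor*, a repressor of translation (2.41), and *ImpL2*, a secreted antagonist of insulin-like peptides (0.86), whose call was lost without isoB control replicate 2 or 3. The sugar-responsive factor genes *sug* (0.36, edgeR adjusted p = 0.0714) and *Mondo* (0.03, adjusted p = 0.719) were not called in isoB null embryos.

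The genes flanking the *Mal-A* cluster were not called in either experiment. *Cyp4e1*, which overlaps *Mal-A1*, averaged 17.6 ± 1.16 CPM in isoA null embryos and 12.5 ± 1.94 CPM in isoA controls (SD, n = 3 each), and 19.2 ± 2.92 CPM in isoB null embryos and 13.9 ± 0.514 CPM in isoB controls (SD, n = 4 each). Its log2 fold changes were 0.49 (edgeR adjusted p = 0.190) and 0.45 (edgeR adjusted p = 0.0507). *Cyp4e2* had 0.15 (adjusted p = 0.832) in isoA null embryos and -0.68 (adjusted p = 0.0992, both edgeR) in isoB null embryos. *mtt*, at the *Mal-A8* end, had 0.39 (adjusted p = 0.293) and -0.20 (adjusted p = 0.395, both edgeR) in isoA and isoB null embryos. *lncRNA:CR44279*, the next gene on that side, had at most 1 count in any sample. In order along the chromosome, the log2 fold changes in isoB null embryos were -0.68 for *Cyp4e2*, 0.45 for *Cyp4e1*, 0.46 for *Mal-A1*, -0.97 for *Mal-A2*, -0.87 for *Mal-A3*, -0.83 for *Mal-A4* and -0.11 for *Mal-A5*. Of these *Mal-A2* and *Mal-A3* were called, and *Mal-A4* was called without isoB null replicate 3. Whether neighbours differ from each other was not tested.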

How the data were processed

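Poly(A) RNA of 14 whole-embryo samples had been sequenced from a single end with a strand-marking kit. The authors aligned the reads with TopHat2 2.1.1 and Bowtie2 2.3.4.0 and counted them per gene over exons with Rsubread under default settings, which ignore strand. The deposited values used here are these raw counts for 17493 genes, not normalized. The authors' tables also hold normalized log2 values, fold changes and p-values from edgeR 3.14.0 and limma 3.28.21, which were not used. Their raw columns differed from the count table in 0 values.

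Low genes were removed with filterByExpr (minimum count 10, minimum total 15), libraries were scaled by TMM, and genes were tested with edgeR 4.0.16 in R 4.3.3, within each experiment as the authors had done. The interaction and the comparison of controls came from a fit of all 14 samples. Genes were called at an adjusted p of at most 0.05 and, for null against control, a log2 fold change of at least 0.7. Standard errors come from the fit. The log2 CPM used a prior count of 2. The test script was tested on simulated data. Alternatives were RLE scaling, no low-count filter, limma-voom (limma 3.58.1), DESeq2 1.42.0, a replicate block, a joint fit and leaving out each sample.

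Positions, exon lengths and gene names were read from an Ensembl annotation (Release 6 assembly), newer than the FlyBase set used by the authors, so ends can differ. Of 17493 identifiers 17362 had a symbol in the reference table used here. Named genes are all 10 members, called genes of the 4 sugar-related lists, 2 annotated genes on each side of each cluster, and the 3 genes most like each member the results turn on. Marker lists are given as counts, with members named where a result turns on them. Members and lists were chosen with earlier results of these data known. Sequences were not used here. Replicates of a group differed beyond sampling noise (mean chi-squared of a gene 12.4 to 79.1 in 18 pairs), and each was counted as 1 sample. Whether samples of the same replicate number belong together is not known, and the main tests did not pair them.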

Additional observations from a re-analysis of the deposited data

Results flagged for a closer look

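*Mal-B1* differed in its response between the experiments. The isoB effect minus the isoA effect was -4.08 on the log2 scale (SE 0.40), and -4.54 to -3.86 under 18 alternatives, which is why it is listed here. The family was chosen with the isoA difference of this gene known, so nothing is read from this size, its range or its test. The value rests on the 3 isoA controls, at 0.245 to 0.704 CPM, since the isoB null, isoB control and isoA null samples all lay between 6.67 and 11.3 CPM. Among the groups of 4 samples, no member had a sample past Dixon's limit in the 20 groups examined. Groups of 3 samples were not examined in this way.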

How the results depend on the processing

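Over the alternatives, 467 of 506 member values kept their direction and side of the threshold, 20 lost a call, 4 gained one and 15 changed sign. In the isoA experiment 101 genes were called, 368 with DESeq2, 43 with the replicate block, 295 in the joint fit and 6 to 183 with a sample left out, with 1 maltase called throughout except 2 without isoA control replicate 3 (leave-one-out range 1 to 2). In the isoB experiment 488 genes were called, 170 with the replicate block and 202 to 676 with a sample left out. The called maltases numbered 2, with 0 under the replicate block (*Mal-A2* -0.99, adjusted p = 0.0751, and *Mal-A3* -0.86, adjusted p = 0.0704, edgeR, both about as large as without it) and 1 to 3 with a sample left out. Same-numbered samples deviated with correlations of -0.140 to -0.0636 (isoA) and -0.171 to 0.190 (isoB). For samples of unlike number these were -0.0455 to 0.170 and -0.161 to 0.327. With so few samples in a group, such values cannot decide whether samples of the same number belong together. Under the block 1 midgut gene and 0 other glycosidases (*LManV* -1.29, edgeR adjusted p = 0.0686) were called in the isoB experiment, against 4 and 1 without it. The interaction passed for 280 genes, 852 with DESeq2 and 103 to 579 with a sample left out, and for 1 maltase, 2 with DESeq2 and 1 to 2 with a sample left out. The controls differed in 2954 genes, 1466 to 3139 with a sample left out, and in 3 maltases, 1 with limma-voom and 1 to 3 with a sample left out.

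Sign changes were all in values that met no call. With each sample left out in turn, the isoA log2 fold change of *Mal-A1* ranged over -1.01 to 1.66 (0.37 with limma-voom, 0.29 with the replicate block), that of *Mal-A2* over -0.062 to 0.13 and that of *Pde1c* over -0.13 to 0.21, the turned end coming in each without isoA control replicate 3. In the isoB experiment *Mal-A5* ranged over -0.20 to 0.021 and *Mal-B2* over -0.31 to 0.071, with the positive end without isoB control replicate 1. The interaction value ranged over -1.19 to 1.75 for *Mal-A1* and -0.96 to 0.059 for *Mal-A4*. Between the controls the ranges were -0.42 to 2.57 for *Mal-A1*, -0.24 to 0.0013 for *Mal-A2*, -0.10 to 0.32 for *Mal-A5* and -0.14 to 0.46 for *Mal-B2*, with *Mal-A1*, *Mal-A5* and *Mal-B2* negative without isoA control replicate 3. Apart from left-out samples, the cause of these changes was not tested. Depth limits *Mal-A6*, *Mal-A7* and *Mal-A8*, which were near the floor of 3 counts in most samples. RLE scaling moved the median of all genes by at most 0.025 on the log2 scale.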
